A study of Mus musculus with 27 samples.

Results

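The genes described here set the dorsoventral axis of the eye or make and break down retinoic acid. They are 9 features of a table of 38168, each chosen as the entry whose symbol was Vax2, Tbx5, Tbx2, Tbx3, Aldh1a1, Aldh1a2, Aldh1a3, Cyp26a1 or Foxd1, and no symbol of the 9 was repeated. The samples were whole retinas of wild type C57BL/6J mice, an inbred laboratory strain, measured by RNA-seq in 27 libraries at 7 ages. There were 3 libraries at embryonic day 14 (E14), 3 at E17, 4 at postnatal day 1 (P1), 3 at P6, 4 at P15, 4 at P28 and 6 at P60. No transgene, mutation or agent is named for any age, all mice lived in a cycle of 12 h light and 12 h dark, and tissue was taken in the light phase. Libraries up to P1 came from larger pools of mixed sexes and later ones from males, so that sex and pool size cannot be told apart from age in comparisons across P1 and P6. Of the P60 libraries 2 were pools and 4 were single mice, and the sources used here do not say which. The study was designed to follow the thyroid hormone receptor isoforms of Thrb over this period, which spans the birth of retinal cells, eye opening and maturity.

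In the embryonic eye, the dorsal retina is marked by T-box transcription factors such as Tbx5, Tbx2 and Tbx3, which act downstream of bone morphogenetic protein signals, and the ventral retina by the homeodomain factor Vax2. Retinoic acid, a signal made from vitamin A, is synthesized by retinaldehyde dehydrogenases at both poles, Aldh1a1 dorsally and Aldh1a3 ventrally, while the P450 enzyme Cyp26a1 degrades it in a band between them. Aldh1a2 makes retinoic acid early in the optic vesicle and in tissue around the eye, and the forkhead factor Foxd1 marks the ventrotemporal retina. A whole retina holds both poles, so the values below follow the amount of each transcript and not where it lay.

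Levels are in cpm, the reads of a gene scaled to a common total of reads per library. Totals ran from 7077781 to 11332323 reads with a median of 7969873, and a count of 0 allows up to 3 reads in a library, for counting error only. Libraries of an age correlated across features at a Pearson r of at least 0.977 except at P60, where the lowest of 15 pairs was 0.94 and replicate 3 had the lowest mean r, 0.958. The 9 neural retina markers were listed at every age, and their summed level rose from 2060 to 2140 cpm in the embryonic libraries to 11700 to 20400 cpm in the mature ones, where rhodopsin made up most of it. Changes were tested with limma on log2(cpm + 1), and an adjusted p under 0.05 over 31760 features was called. A log2 fold change on this scale understates the change of a gene near 1 cpm or below. The p-values rest on the spread between libraries of an age, which this fit pooled over all ages. The p-value of a comparison between ages thus also reflects the spread at ages that it does not compare. The P60 libraries, which correlated least, enter every comparison in this way.

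RefSeq promoter windows (build GRCm38.p6) were at hand for 4 of the 9 genes, Aldh1a1, Aldh1a2, Cyp26a1 and Foxd1, and the 2 windows that held a searched motif are shown, since Cyp26a1 and Aldh1a1 break down and make the same signal. Only bases ahead of both the RefSeq and the GENCODE transcript start are printed, 5′ to 3′ on the plus strand, and capitals mark the motif. The stretch for Cyp26a1 is chr19:37697558-37697797 and that for Aldh1a1 is chr19:20492333-20492582.
Cyp26a1: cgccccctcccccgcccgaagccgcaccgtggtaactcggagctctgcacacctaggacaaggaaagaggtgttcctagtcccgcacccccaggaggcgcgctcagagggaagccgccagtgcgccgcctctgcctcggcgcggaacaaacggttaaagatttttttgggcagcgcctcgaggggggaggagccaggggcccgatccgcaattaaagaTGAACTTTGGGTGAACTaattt
Aldh1a1: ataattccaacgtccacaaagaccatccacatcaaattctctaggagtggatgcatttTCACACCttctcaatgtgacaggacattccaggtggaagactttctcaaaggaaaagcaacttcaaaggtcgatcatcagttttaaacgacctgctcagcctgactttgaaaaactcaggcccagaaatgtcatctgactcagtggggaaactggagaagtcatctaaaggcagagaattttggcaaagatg
The capitals in Cyp26a1 are a retinoic acid element on the reverse strand, at 37697776 to 37697792, positions -32 to -16 from the RefSeq start at 37697808, in which a pair of core sites, each AGGTCA or AGTTCA or GGGTCA or GGTTCA, lie 5 bases apart. Of 32851 promoter windows in the table, 32 (0.0974%) held such an element. The capitals in Aldh1a1 are the T-box core site GGTGTGA on the reverse strand, at positions -192 to -186 from the RefSeq start at 20492583, which 3.98% of all windows held. Aldh1a1 had 2 promoter windows. The other one, which begins at chr19:20601718 and is not printed, held 0 matches to any searched motif. Elements with 2 bases between core sites (0.268% of windows), the homeodomain site TAATTA (5.29%) and the forkhead site TGTTTAC (3.65%) had no match in the windows of these genes. Both strands were searched, the motifs were picked with the sequences in view, and a match describes the letters only.

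From embryonic (E14 and E17) to mature retina (P15, P28 and P60) all 8 genes that passed the filter on low values fell, while Aldh1a2 stayed below the filter with at most 0.858 cpm. Among all features tested 75.4% were called in this comparison, 35.0% higher and 40.4% lower. The falls ran from 0.67 on the log2 scale for Vax2 to 5.55 for Aldh1a3, with a median over the 8 genes of -2.08 against -0.0647 over all features. The F test over the 7 ages also called all 8 genes, in a table where 83.0% of features passed it. In whole retina, fewer cells of a type and less RNA per cell cannot be told apart.

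**Figure D1:**
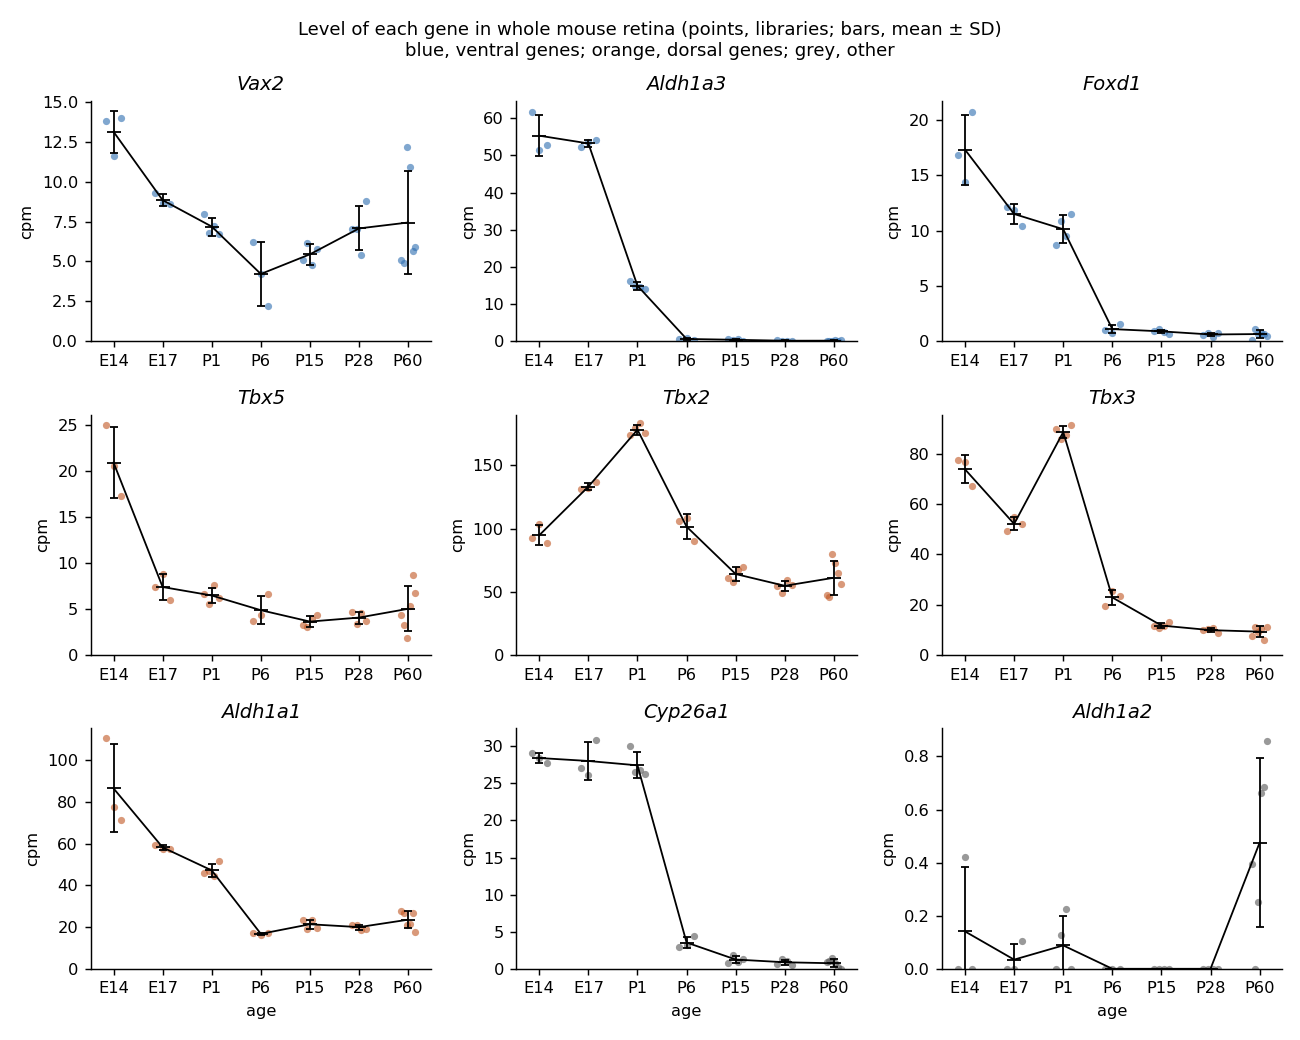
Level of each of the 9 genes in cpm (vertical axis, from 0) in every library (points) at the 7 ages, with the mean and SD of each age in black. Tbx2 and Tbx3 peak at P1 (178 and 88.7 cpm), Aldh1a3, Cyp26a1 and Foxd1 lie near 0 from P6 or P15 on, and Vax2 and Tbx5 spread widely at P60.

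Most of the movement lay between P1 and P6, where 7 of the 8 genes were called and all 7 fell. Of all features 38.3% were called at this step, a share that counts both directions, as do the background shares below. At E17 against E14, 4 were called, 1 higher and 3 lower, where the background was 10.6%. At P1 against E17, 3 were called, 2 higher and 1 lower (background 9.21%). At P15 against P6, 3 were called, all lower (background 33.4%). At P28 against P15 and at P60 against P28 limma called 0 of 8 (background 2.72% and 12.9%), with 0 at an unadjusted p under 0.05 and 0 by edgeR in each. Neighboring steps share the libraries of an age.

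**Figure D2:**
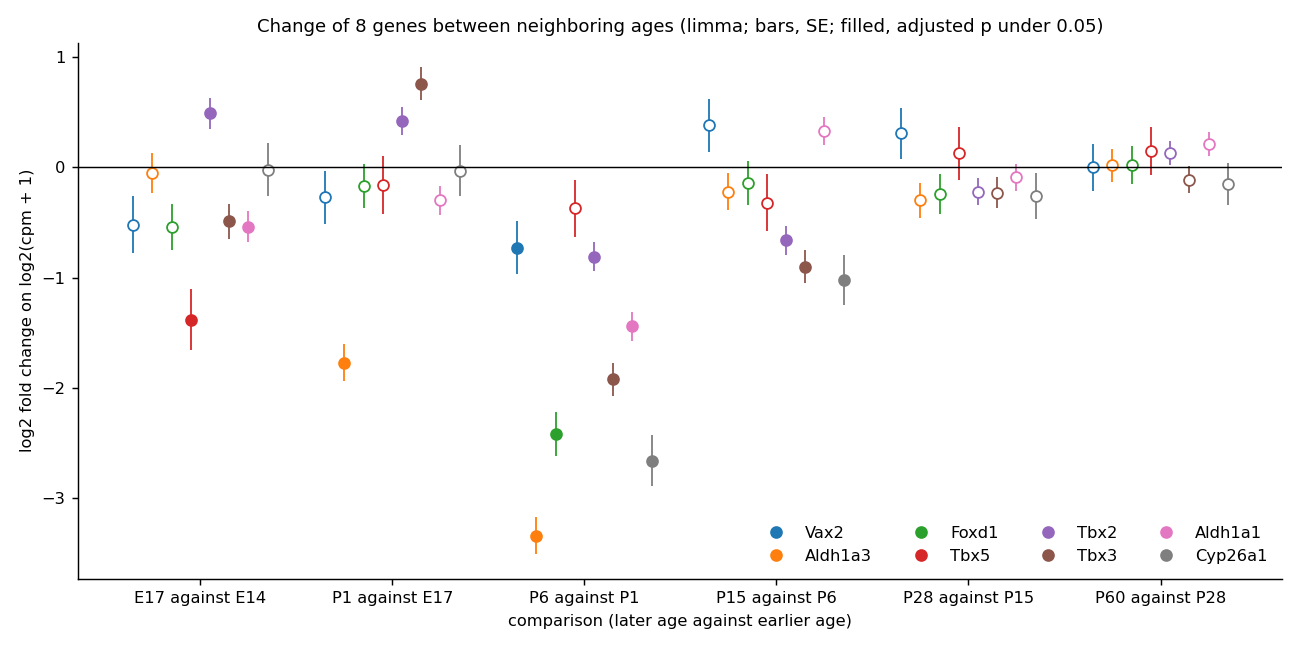
Log2 fold change on log2(cpm + 1) of 8 genes for each age against the one before (horizontal axis), with bars for the SE, filled points for an adjusted p under 0.05 and open points for the rest. The filled points of P6 against P1 all lie below 0, down to -3.34 for Aldh1a3, and the last 2 steps hold open points only.

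Vax2, the ventral homeodomain factor, lies on chromosome 6 (83711264 to 83738313, plus strand, GRCm38). Its libraries held 13.8, 11.6 and 14.0 cpm at E14, 9.30, 8.65 and 8.59 cpm at E17, and 7.97, 6.81, 7.24 and 6.74 cpm at P1. At P6 they held 6.22, 4.22 and 2.21 cpm, the widest spread relative to the mean of any age. The P15 libraries held 5.09, 6.19, 4.75 and 5.77 cpm and the P28 libraries 7.06, 7.02, 5.41 and 8.80 cpm. At P60 the lowest was 4.93, the median 5.76 and the highest 12.2 cpm, and replicates 3 and 4 (12.2 and 10.9 cpm) stood above the other 4. Those 2 libraries and P28 replicate 4 reached the embryonic range, so mature and embryonic groups overlapped, though the mature mean was lower (10.99 to 6.655 cpm, log2 -0.67, SE 0.16, adjusted p 0.00034).

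No step of Vax2 after P6 was called, although its mean rose from 4.214 ± 2.005 cpm at P6 (SD, n = 3) to 7.073 ± 1.383 cpm at P28 (SD, n = 4). The only neighboring step called was the fall from P1 to P6 (log2 -0.73, SE 0.24, limma adjusted p 0.018). It rested on P6 replicate 3, without which the fall was 0.41 on the log2 scale with an adjusted p of 0.23, and edgeR gave an adjusted p of 0.067. Over 34 alternatives the adjusted p of this step ran from 0.0032 to 0.23. The 1.48-fold lower mean at E17 than at E14 was not called (adjusted p 0.26), though no library of one age overlapped the other, and a fit of those ages alone called it (adjusted p 0.0026).

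Vax2os, an antisense transcript, runs through the Vax2 locus on the opposite strand and shares 0 exon bases with it in GENCODE vM21. Its libraries averaged 13.1 cpm at E14, 5.67 cpm at P1, 9.12 cpm at P6, 34.9 cpm at P15, 59.9 cpm at P28 and 80.8 cpm at P60. Between P1 and P6 its libraries went up without overlap while those of Vax2 went down, and after P6 the means of both were higher at each later age, differences not called for Vax2. At P60 the same replicates 3 and 4 were highest for Vax2os, at 103.1 and 92.91 cpm. Whether counting used the strand is not given in the sources used here, and the part of either transcript's reads in the other's value was not tested.

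Foxd1, the ventrotemporal forkhead factor, is a single-exon gene on chromosome 13 (98354242 to 98359305, plus strand). It was detected at 16.8, 14.45 and 20.7 cpm at E14, 12.2, 11.9 and 10.5 cpm at E17, and 8.71, 10.8, 9.50 and 11.5 cpm at P1. From P6 on nearly all of it was gone, with 0.989, 0.757 and 1.52 cpm at P6, 0.937, 1.05, 0.852 and 0.687 cpm at P15, and 0.533, 0.702, 0.406 and 0.754 cpm at P28. At P60 the lowest was 0.131, the median 0.657 and the highest 1.13 cpm. No library from P6 on came within the range of P1 or before.

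Foxd1 fell by 2.42 on the log2 scale from P1 to P6 (SE 0.20, limma adjusted p 6.7e-12) and its log2 fold change from embryonic to mature retina was -3.16 (SE 0.13, adjusted p 1.1e-20). In reads pooled over libraries, 857 embryonic reads stood against 75 mature ones, a 20.6-fold higher share of reads in the embryonic libraries (95% exact interval 16.3 to 26.4, counting error only). The difference between E14 and E17 was not called (log2 -0.54, adjusted p 0.11), except in a fit of those ages alone (adjusted p 0.0012).

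Tbx5, a dorsal T-box factor, lies on chromosome 5 (119832668 to 119885219, plus strand). Its libraries held 25.0, 20.6 and 17.3 cpm at E14 and 7.36, 8.82 and 6.005 cpm at E17, a 2.83-fold lower mean (log2 -1.38, SE 0.28, limma adjusted p 0.00067). Of the 8 genes it had the largest fall at this step. The P1 libraries held 6.62, 5.55, 7.58 and 6.15 cpm, the P6 libraries 3.67, 4.33 and 6.62 cpm, and neither step into these ages was called. Later libraries held 3.21, 3.03, 3.89 and 4.40 cpm at P15 and 4.66, 3.37, 4.60 and 3.65 cpm at P28. The lowest at P60 was 1.88, the median 4.81 and the highest 8.65 cpm, so that P60 overlapped E17. Tbx5 was the only one of the 8 genes whose P6 against P1 difference was not called (log2 -0.37, SE 0.26, adjusted p 0.29), and whether it differed from the other genes at this step was not tested. From embryonic to mature retina it fell by 1.41 on the log2 scale (SE 0.17, adjusted p 7.5e-09).

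Tbx2, a T-box repressor of the dorsal retina also known from cone photoreceptors, lies on chromosome 11 (85832551 to 85841948, plus strand). Unlike the mean of every other gene of the set except Tbx3, its mean was highest at P1. The libraries held 92.5, 103.5 and 88.4 cpm at E14, 131, 132 and 137 cpm at E17, and 174, 179.6, 183 and 176 cpm at P1, with no overlap between ages. It then declined through 106, 108 and 90.0 cpm at P6 and 61.3, 57.55, 67.4 and 70.0 cpm at P15 to 54.6, 49.3, 59.4 and 55.7 cpm at P28. At P60 the lowest was 45.9, the median 60.6 and the highest 79.7 cpm, all below the embryonic libraries.

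The rises of Tbx2 from E14 to E17 (log2 0.49, SE 0.14, limma adjusted p 0.015) and from E17 to P1 (log2 0.42, SE 0.13, adjusted p 0.033) passed narrowly. The first lost its call without E14 replicate 1 (adjusted p 0.055), E14 replicate 3 (0.08) or E17 replicate 3 (0.058), with edgeR (0.12) and with median-of-ratios scaling (0.076), over a range of 7.4e-08 to 0.12. The second lost its call without any single library of E17 or P1 (adjusted p 0.055 to 0.11), with edgeR (0.09), with median-of-ratios scaling (0.11) and with the replicate number as a block (0.062), over a range of 2.8e-05 to 0.11. The direction held in each of these. The later falls, from P1 to P6 (log2 -0.81, SE 0.13, adjusted p 4.4e-06) and from P6 to P15 (log2 -0.66, SE 0.13, adjusted p 0.00013), were called under all 34 alternatives.

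Tbx3, the closest relative of Tbx2 and also dorsal, lies beside Tbx5 on chromosome 5 (119670669 to 119684724, plus strand). Its libraries held 77.4, 76.7 and 67.4 cpm at E14, 49.5, 54.7 and 52.2 cpm at E17, and 90.0, 85.7, 87.6 and 91.3 cpm at P1. The level thus dipped at E17 and was highest at P1, without overlap between these ages. It then held 19.5, 25.5 and 23.6 cpm at P6, 11.6, 10.8, 11.4 and 12.9 cpm at P15, and 9.99, 10.25, 10.7 and 8.55 cpm at P28. The P60 libraries ran from 5.77 over a median of 9.78 to 11.3 cpm, all below those of P6.

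For Tbx3 the dip was called (log2 -0.49, SE 0.16, limma adjusted p 0.037) but not without E14 replicate 1 or 2 or E17 replicate 1 (adjusted p 0.13 in each), E17 replicate 2 (0.068) or E17 replicate 3 (0.097), nor with a pseudocount of 0.1 (0.056), over a range of 1.3e-06 to 0.13. The rise to P1 was 1.7-fold (log2 0.76, SE 0.15, adjusted p 0.00051) and was called under all 34 alternatives. The fall to P6 was 3.88-fold (log2 -1.92, SE 0.15, adjusted p 1.8e-12), and a further 1.95-fold fall to P15 was called (log2 -0.90, adjusted p 1.1e-05). Tbx3os1, an antisense transcript that shares 115 exon bases (1.74%) with Tbx3, held at most 1.688 cpm in any library.

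Aldh1a1, the dorsal retinaldehyde dehydrogenase, lies on chromosome 19 (20492715 to 20643465, plus strand). The E14 libraries held 110.5, 77.6 and 71.3 cpm, and replicate 1 stood above the other two. Libraries of E17 held 59.4, 57.6 and 57.6 cpm, those of P1 45.75, 47.0, 44.3 and 51.6 cpm, and those of P6 16.95, 16.3 and 16.96 cpm, with no overlap between ages. After P6 the level stayed near 20 cpm instead of vanishing, with 23.15, 19.2, 23.4 and 19.7 cpm at P15 and 21.2, 20.9, 18.8 and 19.0 cpm at P28. At P60 the lowest was 17.6, the median 24.1 and the highest 27.5 cpm, every library above those of P6.

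The fall of Aldh1a1 from P1 to P6 was 2.82-fold (log2 -1.44, SE 0.13, limma adjusted p 2e-10) and that from embryonic to mature retina 3.35-fold (log2 -1.67, SE 0.09, adjusted p 1.4e-17). The difference between E14 and E17 was called (log2 -0.54, SE 0.14, adjusted p 0.011) but rested on E14 replicate 1, without which it was -0.35 with an adjusted p of 0.17, and edgeR, which left that library out, gave 0.079, over a range of 2.3e-05 to 0.17. From P6 to P15 the mean went from 16.75 to 21.35 cpm without overlap (log2 0.33, SE 0.13, adjusted p 0.061, not called). This difference passed with edgeR (adjusted p 0.014), median-of-ratios scaling (0.023), only the ages compared (0.027), the replicate block (0.029), and without E14 replicate 1 (0.039) or P60 replicate 6 (0.041). Aldh1a7, a near-identical neighbor of Aldh1a1 in the mouse that could share its reads, held at most 3.011 cpm in any library.

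Aldh1a3, the ventral retinaldehyde dehydrogenase, lies on chromosome 7 (66390890 to 66427517, minus strand). It kept its level through embryonic life, with 61.6, 51.6 and 52.7 cpm at E14 and 52.1, 53.5 and 54.0 cpm at E17, and these ages overlapped (log2 -0.05, limma adjusted p 0.94). By P1 it had fallen to 16.3, 14.9, 14.5 and 14.0 cpm, and by P6 to 0.565, 0.757 and 0.414 cpm. The P15 libraries held 0.535, 0.263, 0.487 and 0.138 cpm and those of P28 0.267, 0.140, 0 and 0 cpm. At P60 the lowest was 0, the median 0.0628 and the highest 0.367 cpm.

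Of the 3 tested enzyme genes it was the only one called from E17 to P1, where it fell 3.57-fold (log2 -1.77, SE 0.17, adjusted p 4.9e-09). Limma gave adjusted p-values of 0.20 for Aldh1a1 and 0.98 for Cyp26a1, and whether the genes differed at this step was not tested. A fit of those ages alone called Aldh1a1 (adjusted p 0.01). The second fall, to P6, was 25.8-fold in mean cpm (log2 -3.34, SE 0.17, adjusted p 1.2e-16). In pooled reads, 497 at P1 stood against 14 at P6, a ratio of 25.1 (95% exact interval 14.8 to 46.2, counting error only). In all, 3244 embryonic reads stood against 20 mature ones, a 292-fold higher share (189 to 479), which is the largest change of the set.

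Aldh1a2, the third dehydrogenase, lies on chromosome 9 (71215789 to 71296243, plus strand) and was close to undetected. One library at E14 held 0.422 cpm, one at E17 0.103 cpm and a pair at P1 0.126 and 0.226 cpm, the rest of these ages held 0 reads, and so did every library at P6, P15 and P28. At P60, 5 of 6 libraries held reads, 3, 0, 2, 6, 5 and 7 in the order of the replicates, or a lowest of 0, a median of 0.528 and a highest of 0.858 cpm. These 23 reads are at least 4.87-fold higher, as a share of all reads, than the 3 that 0 reads at P28 allow over the group. They are 5.82-fold higher than the 5 reads of the embryonic libraries (95% exact interval 2.17 to 19.6, counting error only).

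Aldh1a2 was not among the features tested, and with no filter on low values limma gave a log2 of 0.53 at P60 against P28 with an adjusted p of 0.013. The summed level of 7 connective tissue markers, of 9 listed, was 3.016, 6.055, 6.148, 12.59, 9.477 and 10.17 cpm in the same P60 libraries, highest in the 3 replicates with most Aldh1a2 reads. In the P28 libraries, with 0 reads, it was 4.27 to 6.66 cpm, and in those of E14 9.18 to 11.4 cpm. In the libraries of P6 and P15, also with 0 reads of Aldh1a2, it was 8.44 to 9.65 and 6.96 to 10.6 cpm, near that of the P60 libraries with most reads. The sums differ in their make-up. Most of the E14 sum was Col1a2 (mean 9.26 cpm), while at P60 Col1a1, Col1a2 and Foxc1 had means of 2.1, 2.13 and 1.96 cpm. Of the 7 markers, 0 were at 0 in every P60 library and 2 in every P28 library, and their part in the result was not tested.

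Set side by side per kb of exon, the 3 dehydrogenases summed to 29.5 ± 5.38 cpm per kb at E14 (SD, n = 3), 23.3 ± 0.0802 at E17 (n = 3), 12.8 ± 0.511 at P1 (n = 4) and 3.52 ± 0.0425 at P6 (n = 3). Aldh1a1 made up 58.8% ± 3.48 of this sum at E14 and 50.5% ± 0.932 at E17 (SD, n = 3 each), when both poles' enzymes were near parity. Its share was 74.5% ± 2.22 at P1 (n = 4) and 96.4% ± 1.10 at P6 (n = 3), and the libraries of E17, P1 and P6 did not overlap. From P15 on it held at least 88.6% of the sum in every library, and the rest at P60 was mostly Aldh1a2 (4.42% ± 3.29, SD, n = 6). The shares of E14 lay above those of E17 in each library (55.8 to 62.6% against 49.8 to 51.6%).

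**Figure D3:**
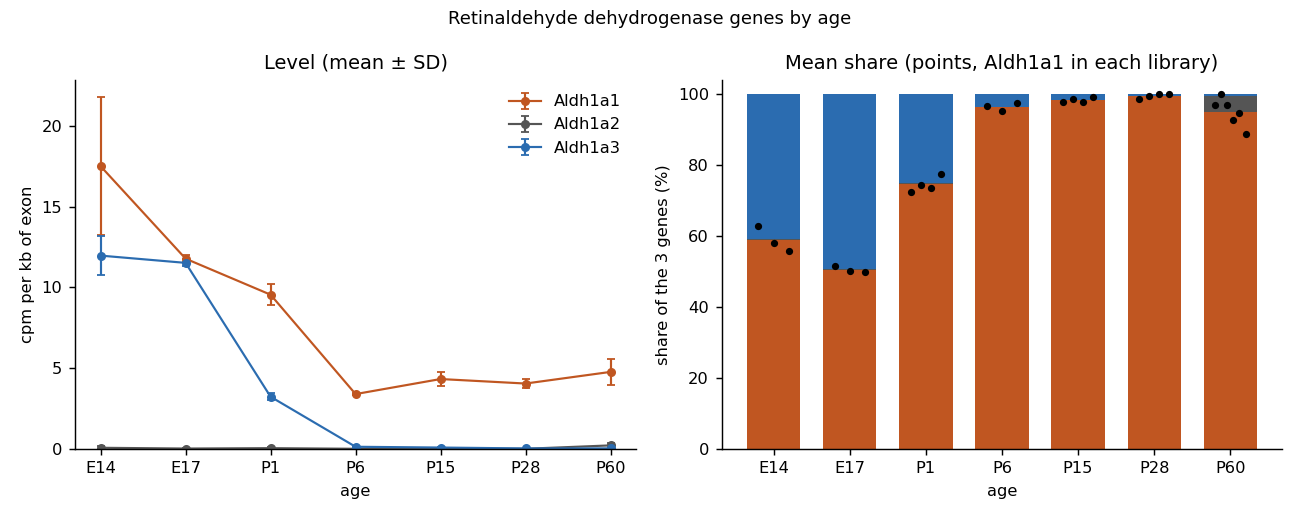
Left, level of Aldh1a1, Aldh1a2 and Aldh1a3 in cpm per kb of exon (mean and SD) at the 7 ages. Right, mean share of each in the sum of the 3 genes in percent (same colors, stacked), with points for the share of Aldh1a1 in each library. Aldh1a1 goes from 50.5% at E17 to 96.4% at P6 as Aldh1a3 is lost.

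Cyp26a1, the retinoic acid hydroxylase whose promoter carries the element shown above, lies on chromosome 19 (37697798 to 37701536, plus strand). It held a plateau of 29.1, 28.4 and 27.8 cpm at E14, 27.1, 26.1 and 30.9 cpm at E17, and 30.0, 26.6, 26.8 and 26.3 cpm at P1. These ages overlapped throughout, and neither step was called (log2 -0.02 and -0.03, adjusted p 0.98 in each). The P6 libraries held 2.97, 3.25 and 4.41 cpm, those of P15 0.803, 1.84, 0.974 and 1.375 cpm, and those of P28 0.666, 1.26, 1.08 and 0.503 cpm. At P60 the lowest was 0, the median 0.846 and the highest 1.51 cpm. The fall to P6 was 7.74-fold (log2 -2.66, SE 0.23, limma adjusted p 3.2e-11), and a further 2.84-fold fall to P15 was called (log2 -1.02, SE 0.23, adjusted p 0.00072). Pooled, 1683 embryonic reads stood against 99 mature ones, a 30.7-fold higher share (95% exact interval 25.0 to 37.9, counting error only).

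Levels of different genes were ordered per kb of exon, with the exons of all GENCODE transcripts of a gene merged. The annotation used in counting is not given, so the order depends on these lengths. Tbx2 was highest at every age, at 26.1 ± 2.15 cpm per kb at E14, 49.1 ± 1.12 at P1 and 15.1 ± 1.15 at P28 (SD, n = 3, 4 and 4), and its libraries overlapped those of no other gene. At E14 it was followed by Aldh1a1 (17.5), Cyp26a1 (14.4), Aldh1a3 (12.0), Tbx3 (11.2), Vax2 (10.6), Tbx5 (4.49), Foxd1 (3.43) and Aldh1a2 (0.0622 cpm per kb). Within this order the libraries of Aldh1a1 and Cyp26a1, of Aldh1a3, Tbx3 and Vax2, and of Tbx5 and Foxd1 overlapped. By P28 the order was Tbx2, Vax2 (5.70), Aldh1a1 (4.04), Tbx3 (1.49), Tbx5 (0.871), Cyp26a1 (0.444), Foxd1 (0.118), Aldh1a3 (0.022) and Aldh1a2 (0 cpm per kb), and of these neighbors only the last pair overlapped. Vax2 stood in the sixth place at E14 and in the second at P28, at a level that was lower by then. Its place at P28 rests on its exon length of 1.24 kb, against 4.94 kb for Aldh1a1 and 6.62 kb for Tbx3. In cpm not divided by length, Vax2 (mean 7.073) lay below Aldh1a1 (19.97) and Tbx3 (9.87) at P28.

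The ratio of a ventral to a dorsal gene, Vax2 cpm over Tbx5 cpm, gave a further view of each library. Its median was 0.564 at E14 (range 0.552 to 0.811) and 1.26 at E17 (0.98 to 1.43), without overlap. Later medians were 1.15 at P1, 0.975 at P6, 1.45 at P15 and 1.80 at P28, with ranges that overlapped that of E17. At P60 the replicates gave 1.18, 1.52, 6.47, 2.06, 0.651 and 0.873. Replicate 3, with the most Vax2 and the least Tbx5 of its age, stood apart with 97 reads of Vax2 and 15 of Tbx5, and replicate 5, with the most Tbx5, lay at the other end. The P6 libraries ranged from 0.333 to 1.69. The other dorsal genes of the set did not all follow the ratio at P60. Tbx2 was highest of its age in replicate 3 (79.7 cpm, against 64.7 cpm in replicate 5). Tbx3 was lowest of its age in replicate 5 (5.77 cpm, against 9.285 cpm in replicate 3). Aldh1a1 was lower in replicate 3 (20.95 cpm) than in replicate 5 (26.65 cpm). No dissection record by pole was among the sources used here, and the P60 libraries differ in whether they hold 1 mouse or a pool.

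**Figure D4:**
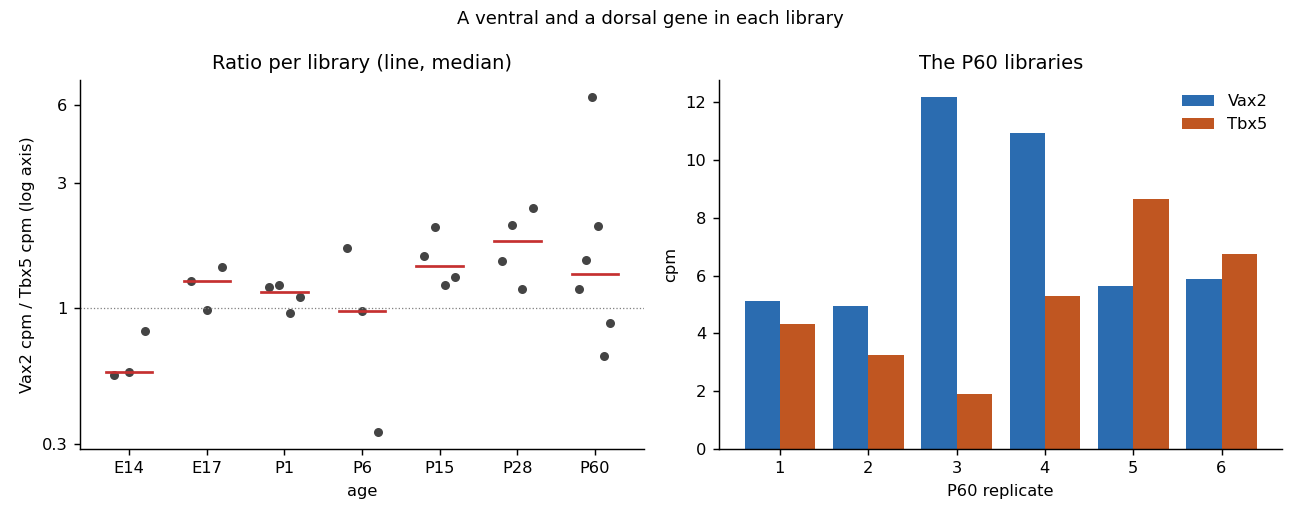
Left, ratio of Vax2 to Tbx5 in each library (points, log axis) and its median (line) at the 7 ages, with a dotted line at 1. Right, cpm of Vax2 and Tbx5 (bars from 0) in the 6 P60 replicates. Replicate 3 has 12.2 cpm of Vax2 against 1.88 cpm of Tbx5, and replicate 5 has 5.63 against 8.65 cpm.

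Other genes of the retinoic acid pathway were called in both directions, and in all about as often as features at large. Of 19 listed, 17 were in the table and 16 were tested, and in mature against embryonic retina 4 rose, 8 fell and 4 were not called, with a median log2 fold change of -0.211. Over all features 75.4% were called in this comparison, 35.0% higher and 40.4% lower, with a median of -0.0647. Adh1 and Adh7 were not analysed here. Dhrs3, which reduces retinaldehyde back to retinol, rose most, from a mean of 2.42 to 72.0 cpm (log2 4.44, SE 0.09, limma adjusted p 9.3e-29). It was already at 28.5 ± 5.24 cpm at P6 (SD, n = 3), from 4.74 ± 0.849 cpm at P1 (n = 4). Rarg, a retinoic acid receptor, rose from 1.13 to 3.99 cpm (log2 1.16, SE 0.14, adjusted p 1.3e-08). Cyp26b1, a relative of Cyp26a1, rose slightly at a low level, from 0.686 to 1.41 cpm (log2 0.49, SE 0.17, adjusted p 0.01), and its highest age mean was 1.67 cpm, at P60.

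The cytoplasmic carriers of retinoic acid fell most. Crabp2, which carries retinoic acid to its nuclear receptors, went from 58.6 to 0.66 cpm (log2 -5.02, SE 0.15, limma adjusted p 4.6e-24), and its mean went from 86.5 ± 3.99 cpm at E14 to 30.8 ± 2.03 cpm at E17 (SD, n = 3 each). Crabp1 went from 34.5 to 2.14 cpm (log2 -3.28, SE 0.14). Stra6, a membrane receptor for retinol uptake, went from 6.05 to 2.29 cpm (log2 -0.98, SE 0.19, adjusted p 2.1e-05). Rdh10, which makes retinaldehyde from retinol, was not called (15.5 to 17.5 cpm, log2 0.14, limma adjusted p 0.21). Its mean was higher in between, at 24.2 ± 1.57 cpm at P1 (SD, n = 4) and 30.8 ± 1.29 cpm at P6 (n = 3). It was 14.5 cpm at both E14 and P60. The receptor gene Rarb was not called either (17.5 to 16.8 cpm, log2 -0.06, adjusted p 0.54). Rarb shares 34.1% of its exon bases with Top2b on the opposite strand.

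Of 29 listed genes of the retinal axes, all in the table and 28 tested, 3 rose, 22 fell and 3 were not called, with a median log2 fold change of -1.55, against 35.0% higher, 40.4% lower and a median of -0.0647 over all features. Zic2, the zinc finger factor of ganglion cells with uncrossed axons, fell most (91.8 to 3.0 cpm, log2 -4.57, SE 0.11, limma adjusted p 9.6e-27). Ephb2, a guidance receptor higher in ventral ganglion cells, went from 379 to 42.9 cpm (log2 -3.13, SE 0.09, adjusted p 5.1e-25). Vax1, the relative of Vax2 in the optic stalk, went from 6.09 to 0.344 cpm (log2 -2.42, SE 0.17, adjusted p 1.8e-14). The dorsal signal Bmp4 rose at a low level (1.01 to 2.15 cpm, log2 0.63, SE 0.15, limma adjusted p 0.00055). Its mean was highest at P15 (3.3 cpm, SD 0.386). The means of P28 (1.65 cpm, SD 0.532) and P60 (1.5 cpm, SD 0.575) lay near that of E14 (1.2 cpm, SD 0.742). Its ventral antagonist Chrdl1 rose as well (9.80 to 13.0 cpm, log2 0.37, SE 0.11, adjusted p 0.0047).

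**Figure D5:**
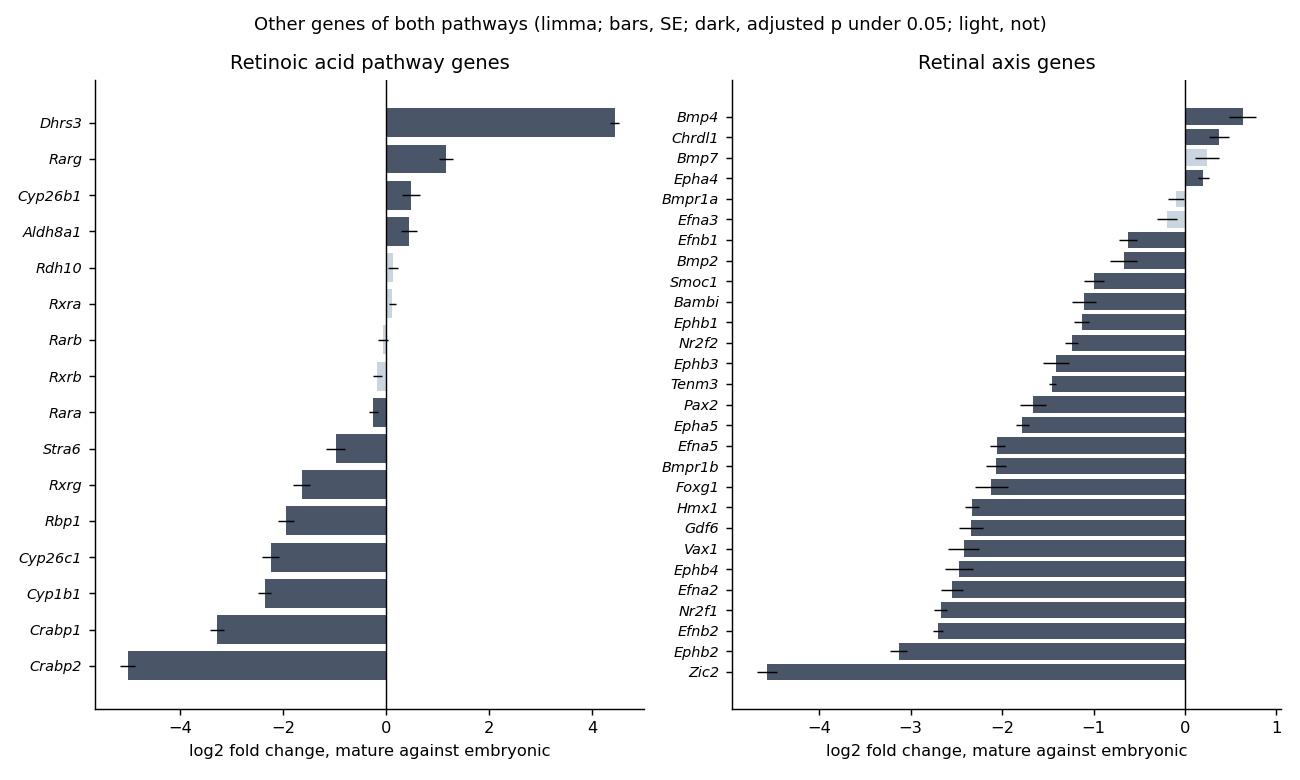
Log2 fold change of mature against embryonic retina (horizontal axis, bars from 0 with the SE) for 16 retinoic acid pathway genes and 28 retinal axis genes, dark for an adjusted p under 0.05 and light for the rest. Dhrs3 (4.44) and Crabp2 (-5.02) are the ends of the left panel, and Bmp4 (0.63) and Zic2 (-4.57) those of the right.

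The course over age was compared by the Pearson r of 7 age means on log2(cpm + 1), which share their libraries and are given as a description. Within the set, Aldh1a3 and Foxd1 ran most alike (r 0.99), followed by Tbx3 and Cyp26a1 and by Cyp26a1 and Foxd1 (0.98 each), while Vax2 and Tbx2 were least alike (0.17). Among 11000 features with a mean of at least 10 cpm, the 3 most like Cyp26a1 were Kif11 (0.999), Klf3 (0.999) and C230071I02Rik (0.9988). For Foxd1 they were 2810417H13Rik (0.9989), Tshz3 and Zwilch, and for Aldh1a3 Gm8378 (0.9975), Hat1 and Map2k6. For Aldh1a1 they included Rfc1 (0.9944) and Prpf4 (0.994). For Tbx3 they were Derl2 (0.9983), Hnrnpll and Eri2, and for Tbx2 Rnd2 (0.9945), Grip1 and Sox2ot. Vax2 (Wdr89, 0.9887, then Scd1 and Kank2) and Tbx5 (Eif4e3, 0.9838, then Ppp2r1a and Esyt1) had the least close neighbors.

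Markers of other eye tissues were read beside these changes. The summed level of 4 ciliary margin markers fell from 48.9 to 86.7 cpm in the embryonic libraries to 3.25 to 7.09 cpm in the mature ones, most of it Zic1, a gene also known from other cells (76.6 cpm at E14). The sum was 42.6 to 53.6 cpm at P1 and 10.2 to 11.1 cpm at P6, the step at which 7 of the 8 genes were called lower. Zic1 alone had means of 45.9 cpm at P1 and 10.3 cpm at P6. Of the other markers, Otx1 went from 5.56 cpm at E14 to 0.279 cpm at P60. The age means of Wfdc1 and Msx1 were at most 0.762 and 0.299 cpm. The sum of retinal pigment epithelium markers (8 of 8 in the table) was 7.85 to 13.1 cpm in embryonic libraries. In mature ones it was higher, at 22.1 to 77.3 cpm. Ttr (0.751 cpm at E14, 13.9 cpm at P60), Mitf (3.76 and 10.5 cpm), Rpe65, Dct and Tyrp1 had higher means at P60 than at E14. Best1 (1.05 and 1.02 cpm), Tyr (1.65 and 1.35 cpm) and Pmel (2.0 and 1.12 cpm) had lower ones. Lens markers (6 of 9) summed to at most 9.07 cpm in embryonic and mature libraries. The part of these tissues in the results was not tested.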

How the data were processed

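RNA-seq of whole mouse retina was analyzed from one table of CPM values that the authors deposited, in which the reads of a feature are scaled to the library total. Per the labels and methods, total RNA went into SMARTer libraries and reads were aligned with STAR to mm10 (GRCm38). The annotation and the use of strand in counting are not given in the sources used here. All values of a library came out as whole reads (100.0% within 0.05 reads), and these counts were used for the pooled ratios and for edgeR. EdgeR used 26 libraries, without E14 replicate 1, for which an automatic test could not judge the step of 1 read. Labels give 3 retinas per library, while the methods give the pools described above.

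Libraries were grouped by age from the labels. The 31760 features that reached 1 cpm in 3 or more libraries entered limma 3.58.1 in R 4.3.3, with a mean-variance trend, on log2(cpm + 1) of all 27 libraries, with age as the factor, two-sided tests and Benjamini-Hochberg adjustment over all features tested. The means of embryonic and mature retina weight ages equally. Read ratios have 95% exact binomial intervals. Gene positions and exon lengths came from GENCODE vM21, promoters from RefSeq. Alternatives were a pseudocount of 0.1, no filter, median-of-ratios scaling, only the ages compared, the replicate number as a block, edgeR 4.0.16 with TMM scaling, the sum of entries of a symbol, a log2 fold change of at least 1 as well, and leaving out each library in turn. The limma fit was also tried on simulated data, with changes placed only in features above a minimum mean level, so features of low mean level were not covered. Tables and figures were made in Python 3.11.15 (pandas 2.3.3, numpy 2.4.6, matplotlib 3.10.9 and, for intervals, scipy 1.17.1).

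The 9 genes, the lists of retinoic acid pathway, retinal axis and cell type marker genes, and the motifs were chosen with earlier results of these data known. Of the pathway and axis lists the counts are given, with the 2 largest rises and the 2 largest falls called and a fixed set of further genes (Rdh10, Dhrs3, Crabp1, Crabp2, Stra6, Cyp26b1, Rarb, Bmp4, Vax1 and Ephb2), and for each gene the 3 features most alike over age, of which 1 is not reported here. Vax2os, Tbx3os1, Aldh1a7 and the single markers of the ciliary margin, pigment epithelium, connective tissue and vessels were named after their values or overlaps were seen. Blood and vessel markers summed to 12.5 to 20.8 and 163 to 333 cpm in embryonic and 19.9 to 43.3 and 128 to 173 cpm in mature libraries. Most of the vessel sum was Kdr (167 cpm at E14, 119 cpm at P60). Pecam1 (1.45 to 8.61 cpm), Tek (0.305 to 4.15 cpm), Cdh5 (0.139 to 2.27 cpm) and Emcn (0 to 0.171 cpm) had higher means at P60 than at E14. Cldn5, like Kdr, had a lower one (2.05 to 1.29 cpm). No 2 libraries of an age agreed within sampling noise (42 pairs, lowest chi-square per degree of freedom 1.69). Other assays of the study were not analysed here.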

Additional observations from a re-analysis of the deposited data

Results flagged for a closer look

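Within each age of 4 or more libraries, a library was picked out when its gap to the nearest other library was large against the range of its age. Among 42 groups of values examined 2 were picked out, and chance gives about 1 in 20, or 2.1. Cyp26a1 at P1 was 30.0 cpm in replicate 1 against 26.3 to 26.8 cpm in the other 3 (gap over range 0.858, critical value 0.829). The ratio of Vax2 to Tbx5 at P60 was 6.47 in replicate 3, against 0.651 to 2.06 in the other 5 (gap over range 0.757, critical value 0.625). That library also had the lowest mean correlation with the other P60 libraries (r 0.958), and without it the median ratio at P60 was 1.18.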

How the results depend on the processing

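All 8 tested genes were called in mature against embryonic retina and over the 7 ages under each alternative, except that a log2 fold change of at least 1 as well left 6 in the first (and 5 of 7 at P6 against P1), and no called change turned its direction. The count of genes called at E17 against E14 (4) was 2 with edgeR, 1 with that minimum fold change, and 1 to 4 with a library left out (1 without E14 replicate 1, 2 without E17 replicate 3). The minimum fold change also left 1 gene at P1 against E17 (3) and 1 at P15 against P6 (3). At P60 against P28 no filter on low values gave 1 gene, Aldh1a2, where the fit with the filter gave 0. Without division by length the share of Aldh1a1 at E17 was 52.2%. With the replicate block 8, 4, 2, 7, 4, 0 and 0 genes were called in mature against embryonic retina and in the steps from E17 to P60. Replicate numbers did not pair the libraries: 69 same-numbered pairs had a median correlation of deviations of -0.00178, 3 were over 0.1, and 6 of 21 libraries correlated best with their own number. Single gene changes lost their call in 25 cases, 17 of these with 1 library left out, and the cause was not tested. Levels under 1 cpm rest on few reads, so small changes of Aldh1a3, Foxd1 and Aldh1a2 in mature retina were not detectable at this depth.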
